A study of Homo sapiens with 4 samples.

Results

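The genes described here move and store zinc in the cell: the SLC39A importers, the SLC30A exporters, the metallothioneins and MTF1, the transcription factor that responds to zinc. Their probe sets were taken from the array annotation by gene symbol. Of the 49395 probe sets on the array, 98 were annotated to exactly 1 gene with a symbol of SLC39A or SLC30A and a number, MT1 and 1 letter, MT2A or MTF1. They stood for 33 of the 18132 genes measured: 14 importers with 50 probe sets, 10 exporters with 29, 8 metallothioneins with 14, and MTF1 with 5.

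Gene expression had been measured on Affymetrix arrays in LNCaP, an established, androgen-responsive prostate cancer cell line grown in RPMI-1640 with serum. The exosome group was 2 arrays of LNCaP cells given exosomes, small vesicles released by cells, collected from PC-3, an androgen-independent line of prostate cancer. The PBS group was 2 arrays of LNCaP cells given the buffer PBS, which the sample titles mark NC (their agent field reads none, and PBS comes from the treatment protocol). The labels name no genetic change in either group, and both share the same line and medium. Nothing in the labels ties the 2 arrays of either group to separate cultures, so the p-values measure only the spread between these samples, which may be technical. The dose and duration of exposure are not used here.

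The labels' extraction text speaks of brain cortex, so the identity of the cells was checked against marker genes. KLK3, the gene of prostate-specific antigen, read 13847 to 14526 on the 4 arrays. Of 6 luminal prostate markers 5 were measured, and HOXB13, a transcription factor of the prostate, read 3240.2 to 3402. Of these 5, 0 passed the limma test used below, and 1 was higher at an unadjusted p under 0.05, against 5.76% of all genes. It was TMPRSS2, at 7120 and 7328 with exosomes and 6509 and 6636 with PBS. Of 7 brain markers 6 were measured, and their summed intensity with exosomes was 1599 and 1609.5, against 1484 and 1541 with PBS. MBP, a myelin gene that other cells transcribe too, made up the largest share at 764 to 868. GFAP read 255 to 299, NEFL 273 to 314 and SNAP25 105 to 131, all above 49.2, the mean of the background control probe sets. SYT1 read 31.8 to 36.5 and AQP4, a water channel of astrocytes, 21.2 to 24.9, both below it. That mean was taken on the log2 scale over 23 control probe sets. They ran from 10.4 to 3750 over the 4 arrays, so 49.2 is no limit of detection here or below. None of the 6 brain markers passed the limma test used below, against 0.700% of all genes higher and 0.188% lower. Without adjustment MBP was higher and NEFL lower (limma p under 0.05), against 5.76% and 5.16% of all genes. The part of the brain markers in any result was not tested. For markers that PC-3 or mesenchymal cells carry, the sum over 5 genes was 886 and 869.9 with exosomes against 902 and 881 with PBS. Of those 5 genes 0 passed the limma test and 0 had an unadjusted p under 0.05, against the same shares of all genes. The arrays had median intensities of 110.8 to 112.4, and precision is limited by having 4 arrays.

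Zinc cannot cross membranes unaided. SLC39A proteins, also called ZIP, carry it into the cytosol from outside or from organelles, and SLC30A proteins, also called ZnT, carry it out of the cytosol, across the plasma membrane or into vesicles. Metallothioneins are small, cysteine-rich proteins that bind zinc, copper and cadmium, and MTF1 switches on their genes by binding metal response elements when free zinc rises. The normal prostate holds more zinc than most soft tissues and prostate cancers lose much of it, which is the setting in which ZIP1, the product of SLC39A1, is best known.

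The metal response element has the core TGCACNC or TGCGCNC, where N is any base. It was searched on both strands in the 250 bases before each start site kept from RefSeq (GRCh38.p14), counting overlapping matches once. These windows are shown because they are the place where MTF1 is known to act, and they give the sequence beside the values that follow. MT2A and MT1X stand for the metallothioneins, SLC30A1 is the exporter known as an MTF1 target, and SLC39A11 is the member that passed the test. The windows lie at chr16:56608334-56608583 on the plus strand (MT2A), chr16:56682220-56682469 on the plus strand (MT1X), chr1:211579162-211579411 on the minus strand (SLC30A1) and chr17:73092689-73092938 on the minus strand (SLC39A11). Each is written 5′ to 3′ on the strand of its gene and ends at the base before the start site, with matches to the core, on either strand, in capitals.
MT2A: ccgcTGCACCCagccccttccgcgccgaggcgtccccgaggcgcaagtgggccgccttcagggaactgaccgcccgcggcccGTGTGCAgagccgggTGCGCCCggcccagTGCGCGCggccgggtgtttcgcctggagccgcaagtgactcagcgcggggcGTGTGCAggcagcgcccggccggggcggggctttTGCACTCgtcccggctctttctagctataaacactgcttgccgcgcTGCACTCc
MT1X: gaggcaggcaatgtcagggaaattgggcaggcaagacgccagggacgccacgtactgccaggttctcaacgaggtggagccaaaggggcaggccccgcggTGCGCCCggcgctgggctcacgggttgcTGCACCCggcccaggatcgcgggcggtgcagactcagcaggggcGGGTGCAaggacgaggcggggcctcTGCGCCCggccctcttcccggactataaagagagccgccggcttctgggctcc
SLC30A1: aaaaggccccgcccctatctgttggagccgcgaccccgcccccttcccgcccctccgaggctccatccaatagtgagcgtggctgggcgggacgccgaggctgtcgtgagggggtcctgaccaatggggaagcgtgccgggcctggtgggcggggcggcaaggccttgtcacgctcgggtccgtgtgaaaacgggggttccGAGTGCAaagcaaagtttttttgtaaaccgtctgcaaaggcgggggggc
SLC39A11: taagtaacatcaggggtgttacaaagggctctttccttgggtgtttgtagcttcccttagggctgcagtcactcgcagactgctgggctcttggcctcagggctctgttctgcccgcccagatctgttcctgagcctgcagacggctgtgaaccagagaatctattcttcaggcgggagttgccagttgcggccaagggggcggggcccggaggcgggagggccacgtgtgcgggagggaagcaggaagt

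MT2A held the core at 7 places and MT1X at 4, and the windows of MT1H and MT1B held it at 8 and 3. Among all 35116 RefSeq windows of this length, 24.8% held at least 1 match and 1.05% held 3 or more. SLC30A1 had 1 match, 49 bases before its start site, and SLC39A11 had 0. Of the importers and exporters with a window searched here, 5 of 12 importer genes and 5 of 9 exporter genes had a match in at least 1 of their windows. Member windows on chromosome 8 were left out of the search but kept in the count over all RefSeq windows. No window was searched for SLC39A4, SLC39A14, SLC30A8, MT1E, MT1F, MT1G and MT1M. A match describes letters in a window and does not show that MTF1 binds there. The MT1 and MT2A genes lie in 1 cluster on chromosome 16 in that assembly, where the 8 members follow each other in the order MT2A, MT1E, MT1M, MT1B, MT1F, MT1G, MT1H and MT1X, with pseudogenes and other metallothionein genes between some of them.

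**Figure D1:**
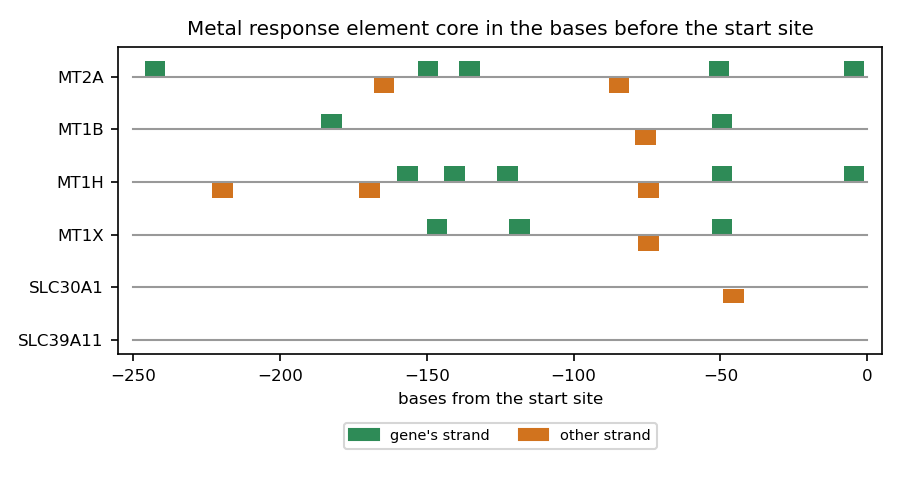
Places of the metal response element core in the 250 bases before the start site of 6 genes, in bases from the start site, with matches on the gene's strand above the line and on the other strand below it. The 4 metallothionein windows hold 3 to 8 matches each, SLC30A1 holds 1 and SLC39A11 holds 0.

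Little of the zinc system moved past the test after PC-3 exosomes. SLC39A11 rose 1.27-fold, a call that several other fits given below did not keep, and the other 32 genes did not pass. The median log2 fold change was 0.0017 in importers, 0.0093 in exporters and 0.013 in metallothioneins. Centring the arrays on poly-A spike-ins, probe sets for control transcripts that can be put into a sample, lowers every gene by 0.14. It put the family medians at -0.14, -0.13 and -0.13 and that of all genes at -0.15. Whether such transcripts were added here was not tested. The mean log2 of the 24 spike-in probe sets was 6.94 on exosome replicate 1 and 7.02 on exosome replicate 2. On PBS replicate 1 it was 6.90, but 6.77 on PBS replicate 2. These 2 PBS arrays differed by nearly as much as the shift, which is therefore imprecise. In the metallothioneins MT1G read higher with exosomes in all of its probe sets while MT1X read lower in both of its own. Genes were tested with limma on log2 of the normalized intensity plus 1, exosome minus PBS, two-sided, with Benjamini-Hochberg adjustment over all 18132 genes and a threshold of 0.05, and a gene was represented by its probe set with the highest mean. Of the 33 genes 1 was higher (3.03%) and 0 lower, against 0.700% higher and 0.188% lower among all genes. Before adjustment, 4 members were higher and 3 lower with a limma p under 0.05, against 5.76% and 5.16% of all genes. Both exosome arrays lay above both PBS arrays in 8 members and below them in 6, against 17.8% and 21.9% of all genes. With every probe set tested for itself, 0 of the 98 passed in limma, against 0.238% of all probe sets higher and 0.0200% lower. Without adjustment 5 were higher and 6 lower, against 4.73% and 4.14% of all probe sets. With 2 arrays on each side the smallest two-sided p of an exact permutation test is 0.333, and each p here therefore depends on limma's variance model.

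**Figure D2:**
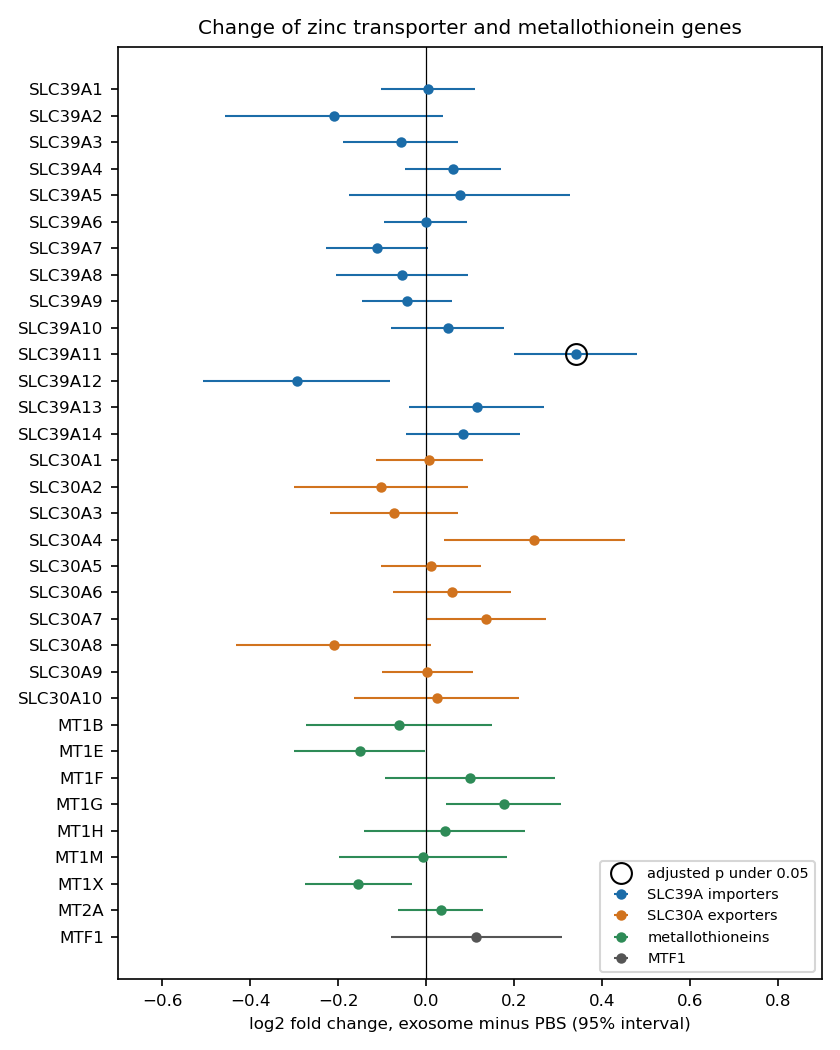
Log2 fold change, exosome minus PBS, of the 33 genes with its 95% interval from the limma fit, by family, and a ring around SLC39A11, the gene with an adjusted p under 0.05. SLC39A11 lies at 0.34, and SLC39A2, SLC39A12, SLC30A8 and MT1H have means below that of the background controls, so their points carry little meaning.

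Of 14 importers 7 were above 0 and 7 below, with a median of 0.0017 against -0.012 over all genes (-0.14 and -0.15 with poly-A centring). SLC39A11 encodes ZIP11, which belongs to the GufA branch of the ZIP family and has been found on inner membranes of the cell. It read 442.2 and 442.3 with exosomes and 357 and 342 with PBS, so the exosome arrays nearly coincided and both lay above the PBS arrays. Its log2 fold change was 0.34 (SE 0.062, 95% interval 0.20 to 0.48, limma adjusted p = 0.046), a size that 1.11% of all genes reached or passed in either direction. The gene has 3 probe sets, and the others gave 0.077 and 0.13 with unadjusted limma p of 0.375 and 0.310. The call was kept with quantile normalization, array-median centring, a pseudocount of 16, both filters on low values and robust eBayes (limma adjusted p = 0.010 to 0.049). It was lost in limma without a trend (adjusted p = 0.178) and without any 1 of the 4 arrays (log2 0.31 to 0.37, limma adjusted p = 0.119 to 0.411), where 28 to 40 genes in all were higher. It was also lost as the mean of its probe sets, at 0.18 (limma adjusted p = 0.364), and with poly-A centring, at 0.20 (limma adjusted p = 0.223).

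SLC39A1, SLC39A2 and SLC39A3 encode ZIP1, ZIP2 and ZIP3, the uptake transporters best known in the prostate. SLC39A1 read 1239.7 and 1250.4 with exosomes and 1255 and 1228 with PBS. These arrays overlapped, and the log2 fold change was 0.0047 (SE 0.047, 95% interval -0.10 to 0.11, limma adjusted p = 0.992). Of its 9 probe sets 7 were above 0, up to 0.15. SLC39A3 read 717 and 767 with exosomes and 784 and 759 with PBS, again with overlap, at -0.058 (SE 0.058, 95% interval -0.19 to 0.073, limma adjusted p = 0.794). SLC39A2 read 33.2 and 31.3 with exosomes and 33.5 and 41.8 with PBS, below the mean of the background control probe sets, which corresponds to 49.2. PBS replicate 2 stood apart from the other 3 arrays, and without it the log2 fold change was -0.055 in place of -0.21.

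SLC39A7 encodes ZIP7, which releases zinc from the endoplasmic reticulum into the cytosol. It read 871 and 895 with exosomes and 943 and 967 with PBS, without overlap, at -0.11 (SE 0.051, limma adjusted p = 0.474). Its other 2 probe sets pointed the other way, at 0.088 and 0.13, so the gene has no settled direction on this array. SLC39A12 encodes ZIP12, known mainly from the brain. It read 22.5 and 19.4 with exosomes and 24.9 and 26.9 with PBS, at -0.29 (SE 0.094, limma adjusted p = 0.274), and its other probe set gave 0.0003. Both of its probe sets read below the background controls' mean of 49.2, at which level a fold has little meaning.

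SLC39A10, a plasma membrane importer whose gene MTF1 is known to hold down when zinc is ample, read 1151 and 1251 with exosomes and 1185 and 1136 with PBS. Its arrays overlapped, and the log2 fold change was 0.049 (SE 0.057, 95% interval -0.080 to 0.18, limma adjusted p = 0.835). SLC39A9, whose product has also been described as a membrane androgen receptor, read 2188 and 2083 with exosomes and 2216 and 2187 with PBS, at -0.044 (SE 0.045, limma adjusted p = 0.800). Its 9 probe sets were split, 4 above 0 and 5 below, and the dimmest of those below read 29.8 to 40.5, under the background controls' mean of 49.2. The remaining importers SLC39A4, SLC39A5, SLC39A6, SLC39A8, SLC39A13 and SLC39A14 lay between -0.055 and 0.11 with limma adjusted p of 0.595 or more. SLC39A13 was above 0 in both of its probe sets, at 0.11 and 0.16, and its arrays did not overlap in either.

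Among the exporters 0 of 10 passed the limma test (against 0.700% of all genes higher and 0.188% lower), and without adjustment 2 were higher and 0 lower (against 5.76% and 5.16%), with a median log2 fold change of 0.0093 (-0.13 with poly-A centring). SLC30A1, the zinc exporter of the plasma membrane and, beside the metallothioneins, the best-known target of MTF1, read 736 and 739.9 with exosomes and 748 and 721 with PBS. Both exosome arrays lay between the PBS arrays, and the log2 fold change was 0.0072 (SE 0.054, 95% interval -0.11 to 0.13, limma adjusted p = 0.990). A rise or fall of SLC30A1 within that interval is not detectable with 2 arrays a group. Its second probe set gave -0.031.

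SLC30A4 encodes ZnT4, which loads zinc into vesicles and is abundant in prostate and mammary epithelium. It read 262 and 302 with exosomes and 251 and 224 with PBS. Its groups did not overlap, but exosome replicate 1 lay closer to PBS replicate 1 than to exosome replicate 2, and the log2 fold change of 0.25 (SE 0.091) had a limma adjusted p of 0.349. Without exosome replicate 2 it was 0.14. SLC30A7 encodes ZnT7, which supplies the Golgi, and it read 465 and 472 with exosomes and 435 and 417 with PBS. Both exosome arrays were above both PBS arrays, at 0.14 (SE 0.060, limma adjusted p = 0.458). All probe sets of SLC30A4 (0.17 and 0.25) and of SLC30A7 (0.020 to 0.14) were above 0, although with poly-A centring SLC30A7 had -0.0033.

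SLC30A8, the zinc transporter of insulin granules, was dim in LNCaP, at 41.5 and 37.8 with exosomes and 42.9 and 49.2 with PBS. Its 4 probe sets were all below 0, from -0.35 to -0.012, and each had a mean under the background controls' 49.2 in both groups. SLC30A2, which fills secretory vesicles of the mammary gland, read 136 and 155 with exosomes and 158 and 153 with PBS, at -0.10 (SE 0.087, limma adjusted p = 0.744). Exosome replicate 1 alone was low, and without it the log2 fold change was -0.0070. SLC30A3, SLC30A5, SLC30A6, SLC30A9 and SLC30A10, which serve synaptic vesicles, the early secretory pathway (SLC30A5 and SLC30A6), mitochondria and manganese export, lay between -0.073 and 0.060. The second probe set of SLC30A3 read 99.0 and 96.5 with exosomes and 120.6 and 115 with PBS, without overlap, at -0.27 (limma adjusted p = 0.388 over all probe sets).

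**Figure D3:**
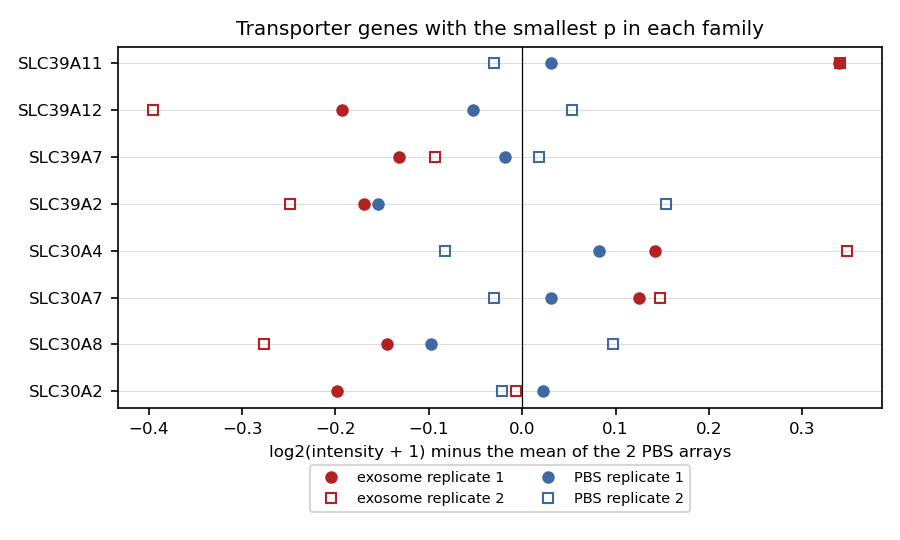
Each array's log2 of the intensity plus 1 minus the mean of the 2 PBS arrays, for the 4 importers and 4 exporters with the smallest p. In SLC39A11 both exosome arrays lie at 0.34, while in SLC30A4 they lie at 0.14 and 0.35.

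Of the 8 metallothioneins, the genes best known to answer to MTF1, 0 passed in limma, and without adjustment 1 was higher and 2 were lower (p under 0.05), against 5.76% and 5.16% of all genes. Their median log2 fold change was 0.013 (-0.13 with poly-A centring), with 4 genes above 0 and 4 below. MT2A, usually the main metallothionein of epithelial cells, read 10862 and 10107 with exosomes and 10471 and 10017 with PBS. Its arrays overlapped, and the log2 fold change was 0.033 (SE 0.043, 95% interval -0.064 to 0.13, limma adjusted p = 0.858). Its second probe set, which read 525 to 619, gave -0.097.

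MT1G and MT1X lay on opposite sides of 0. MT1G read 3101 and 2863 with exosomes and 2762 and 2515 with PBS, so both exosome arrays were above both PBS arrays. Its log2 fold change was 0.18 (SE 0.058, 95% interval 0.046 to 0.31), with an unadjusted p of 0.014 and a limma adjusted p of 0.288. The other probe sets of MT1G gave 0.17 and 0.26, the latter from 2175 and 2069 with exosomes against 1793 and 1749 with PBS (limma adjusted p = 0.127 over 44988 probe sets). MT1X read 2792 and 2523 with exosomes and 2994 and 2913 with PBS, so both exosome arrays were below both PBS arrays. Its log2 fold change was -0.15 (SE 0.053, 95% interval -0.28 to -0.033), with an unadjusted p of 0.018 and a limma adjusted p of 0.317, and its other probe set gave -0.20. Both values depended on single arrays: MT1G had 0.11 without PBS replicate 2, and MT1X had -0.081 without exosome replicate 2. The difference between MT1G and MT1X was not tested.

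MT1E also read lower with exosomes, at 261 and 255 against 285 and 288 with PBS, without overlap, at -0.15 (SE 0.066, limma adjusted p = 0.454). MT1F read 395 and 332 with exosomes and 340.3 and 336 with PBS, where exosome replicate 1 alone was high. Without that array its log2 fold change was -0.026 in place of 0.099. MT1B read 283 and 249 with exosomes and 257 and 298 with PBS, at -0.062 (SE 0.093, limma adjusted p = 0.883), with the groups crossing. MT1M read 82.1 and 76.2 with exosomes and 79.8 and 79.2 with PBS, at -0.0076 (SE 0.084). MT1H read 44.9 and 45.0 with exosomes and 43.6 and 43.7 with PBS, at 0.042 (SE 0.081, limma adjusted p = 0.915), below the background controls' mean of 49.2.

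Of the 14 metallothionein probe sets 10 carry the Affymetrix suffixes x or s, which mark probes that can also match other transcripts, against 16 of 50 importer and 8 of 29 exporter probe sets. The MT1 genes are close in sequence, so signal may be shared between them, and its part in these values was not tested. With the arrays centred on the poly-A spike-ins, MT1X fell by 0.29 (limma adjusted p = 0.038) and MT1G had 0.037 (limma adjusted p = 0.750). That centring lowers every log2 fold change by 0.14, and with it 326 of all 18132 genes were lower in place of 34. The spike-in means of the PBS replicates differed by nearly as much as this shift, so the MT1X call with it is uncertain.

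**Figure D4:**
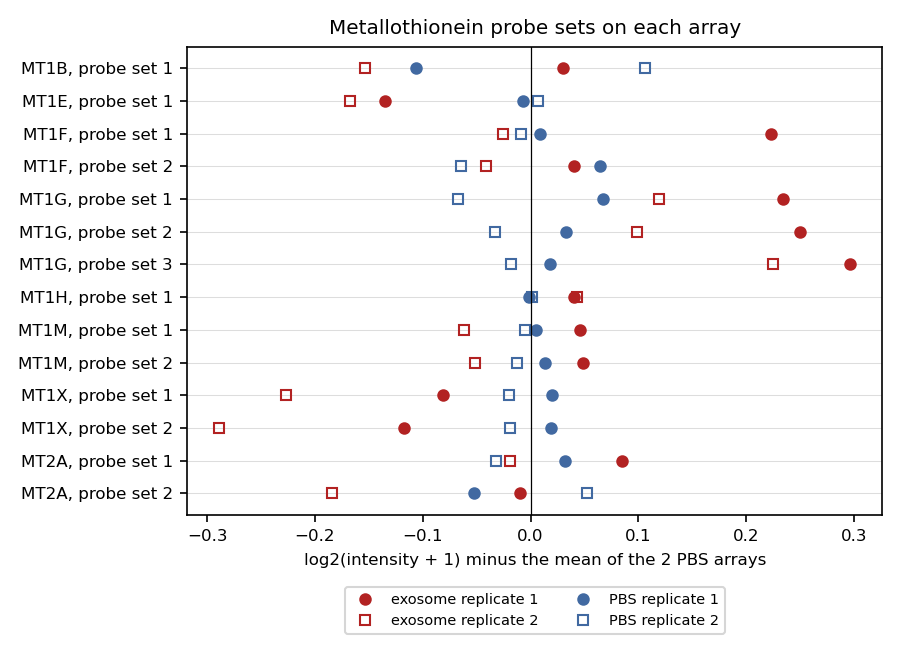
Each array's log2 of the intensity plus 1 minus the mean of the 2 PBS arrays, for the 14 metallothionein probe sets, numbered within a gene from the brightest with exosomes. Both exosome arrays lie above both PBS arrays in all 3 probe sets of MT1G and in MT1H, and below them in both of MT1X and in MT1E. Over all genes, counted by gene and not by probe set, 17.8% lay above and 21.9% below.

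MTF1 itself read 469 and 499 with exosomes and 488 and 409 with PBS. PBS replicate 2 was low and the groups overlapped, at 0.11 (SE 0.086, 95% interval -0.080 to 0.31, limma adjusted p = 0.698), and without PBS replicate 2 the value was -0.013. Of its 5 probe sets 2 were above 0 and 3 below, from -0.085 to 0.23.

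How far the probe sets of a gene gave 1 direction differed between genes. Of the 27 members with several probe sets, 10 had all of them on the same side of 0, 5 above and 5 below. Those above were MT1G, SLC30A4, SLC30A7, SLC39A11 and SLC39A13, and those below were MT1M, MT1X, SLC30A2, SLC30A3 and SLC30A8. The values of MT1M lay at -0.0076 and -0.0017, so its side of 0 carries no information. Probe sets of 1 gene share its RNA on the same arrays and are not replicates. The same count was not taken over all genes with several probe sets, so 10 of 27 cannot be called many or few.

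**Figure D5:**
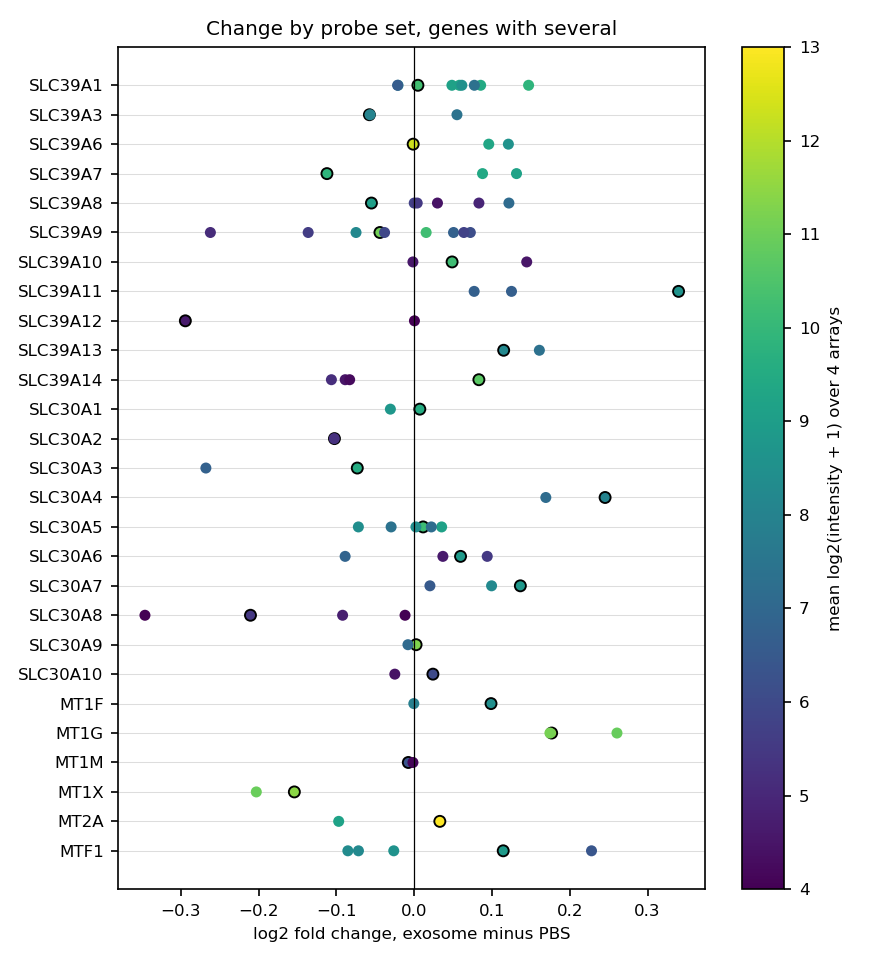
Log2 fold change, exosome minus PBS, of every probe set of the 27 genes that have several, coloured by the mean log2 of the intensity plus 1, with a black outline for the probe set that stands for the gene. Genes such as SLC39A7 and MTF1 have probe sets on both sides of 0, while the 3 probe sets of MT1G and of SLC39A11 lie above it.

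Related metal genes were read from lists chosen, like the members, with earlier results of these data known. Of 16 genes of copper handling 0 passed in limma, against 0.700% of all genes higher and 0.188% lower. Without adjustment 2 were higher and 0 lower (p under 0.05), against 5.76% and 5.16% of all genes. Their median log2 fold change was 0.016, against -0.012 over all genes. SLC31A1, the copper importer CTR1, came nearest, at 1069.8 and 1083 with exosomes and 911 and 844 with PBS (log2 0.30, SE 0.056, limma adjusted p = 0.052). ATOX1, a copper chaperone, had 0.080, and SLC31A2, a relative of CTR1 on internal membranes, had -0.13. Among other routes and sensors of zinc and divalent metals 0 of 13 passed in limma, with a median of 0.083. Without adjustment 2 were higher and 0 lower, against the same 5.76% and 5.16% of all genes. In that list TMEM163, a zinc transporter of vesicles, read 53.4 and 54.5 with exosomes and 44.4 and 42.9 with PBS, where both PBS arrays lie under the background controls' mean of 49.2 (limma adjusted p = 0.193). CNNM4, a magnesium transporter, had 0.23 and SLC11A2, the divalent metal transporter DMT1, had 0.16, with limma adjusted p of 0.288 and 0.476. Of 5 further metallothionein genes and pseudogenes measured, 0 passed in limma, with a median of -0.067. Without adjustment 0 were higher and 1 lower, against the same 5.76% and 5.16% of all genes. The pseudogenes MT1DP and MT1IP had -0.22 and -0.069 (limma adjusted p = 0.322 and 0.899). MT4, a metallothionein of squamous epithelium, read 40.2 to 48.3, under the background controls' mean.

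Genes that cadmium or excess zinc is known to induce besides metallothioneins were also read. This list too was chosen with earlier results of these data known, so its count beside the share of all genes is no test. Of 14 measured 5 rose and 0 fell, against 0.700% of all genes higher and 0.188% lower, with a median log2 fold change of 0.11. HMOX1, which degrades heme, read 659 and 762 with exosomes and 278 and 275 with PBS and rose by 1.35 (SE 0.076, limma adjusted p = 1.4e-04). SQSTM1, an autophagy receptor, rose by 0.50, SLC7A11, the cystine importer, by 0.56, GCLM, of glutathione synthesis, by 0.46, and NQO1, a quinone reductase, by 0.28, with limma adjusted p from 5.0e-04 to 0.029. GCLM was lost without exosome replicate 2, PBS replicate 1 or PBS replicate 2 (log2 0.39 to 0.53 over the 4 fits), and NQO1 without any 1 of the 4 arrays (0.23 to 0.32). In limma without a trend HMOX1 and SLC7A11 were kept and SQSTM1, GCLM and NQO1 were lost (adjusted p = 0.067 to 0.278). With poly-A centring NQO1 had 0.14 (limma adjusted p = 0.315). Heat shock genes of the same list did not pass, among them those with an unadjusted p under 0.05: HSPA1B had 0.11 (limma adjusted p = 0.343), HSPA6 -0.37 (limma adjusted p = 0.316), and HSPH1 -0.088 (limma adjusted p = 0.449). No test compared this list with the metallothioneins.

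Zinc is known to slow citrate oxidation in normal prostate epithelium, and genes of citrate metabolism were listed with earlier results of these data known. Of 11 genes of citrate metabolism measured, 1 rose and 0 fell, against 0.700% of all genes higher and 0.188% lower, with a median log2 fold change of 0.036. IDH1, the cytosolic isocitrate dehydrogenase, read 3404 and 3510.1 with exosomes and 2776 and 2679 with PBS and rose by 0.34 (SE 0.042, limma adjusted p = 0.0085). It was not past the threshold without any 1 of the 4 arrays, at 0.32 to 0.37, nor in limma without a trend (adjusted p = 0.178), and with poly-A centring it had 0.20 (limma adjusted p = 0.174). IDH2, its mitochondrial relative, had 0.13 and ACO1, the cytosolic aconitase that doubles as an iron sensor, had 0.13, with limma adjusted p of 0.416 and 0.457.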

How the data were processed

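LNCaP cells given PC-3 exosomes (2 arrays) were compared with LNCaP cells given PBS (2 arrays), grouped by sample title. The deposited values are normalized intensities on a linear scale, 1 per probe set, and MAS5 and RMA are listed in the submitters' processing notes, with no role, order or version. The annotation build is not given in the sources used here. Sorted values of the arrays lay within 0.065 (log2) of each other rank by rank, and no further normalization was done. Of 49395 probe sets, 102 were controls, 1832 named several genes and 2473 none, and these were left out. Values were taken to log2(value + 1) and fitted with limma 3.58.1 in R 4.3.3 (lmFit, eBayes with a trend, 2 residual degrees of freedom), over all genes (6.99 prior degrees of freedom) and over all probe sets (5.65). Data over 18132 genes were simulated from this fit's own variance model, with 50 changed genes of each size. On them the exosome against PBS fit called 10% of genes with a log2 change of 0.25, 66% of those at 0.5 and 100% at 1. These shares hold only as far as that model does. The smallest changes here are therefore mostly beyond reach of 2 arrays a group.

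The members and lists were chosen with earlier results of these data known. Values on every array are given for members past the threshold, every metallothionein, MTF1, SLC30A1, SLC39A10, SLC39A1 to SLC39A3, the 4 smallest p in each transporter family, and genes whose probe sets differ in sign with 1 of them at an unadjusted p under 0.05 (SLC39A9 and SLC39A12). Lists are given by counts and medians, with up to 3 members of the smallest p and the members past the threshold. HSPA1B, HSPA6, HSPH1, SLC30A3, SLC39A13, MT1JP and the markers shown were named after their values were seen. Alternatives were a pseudocount of 16, quantile normalization, centring on array medians or on 24 poly-A spike-in probe sets, filters on low values, the mean of probe sets, every probe set, other variance models, a threshold of 0.10, the replicate number as a block, and each array left out. Promoter windows are RefSeq's, on GRCh38.p14, for 26 of the 33 genes, the others being those named above as not searched. Figures were drawn with matplotlib 3.10.9.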

Additional observations from a re-analysis of the deposited data

How the results depend on the processing

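With 2 arrays a group, small changes are beyond reach, and signal below the mean of the background controls limits SLC39A2, SLC39A12, SLC30A8 and MT1H. The count of members higher, 1, was 0 with poly-A centring, the mean of probe sets, eBayes without a trend, the replicate block, every probe set and any array left out (0 to 0), and 1 under the other settings. Members lower, 0, became 1 (MT1X) with poly-A centring, where 326 of all 18132 genes were lower in place of 34, and stayed 0 under the others. The replicate numbers are not explained in the labels, and the deviations of same-numbered arrays had a correlation of -0.040 across all genes and -0.45 across the 33 members, and neither the labels nor the all-gene value pairs the samples. With the replicate block 2 genes in all were higher and 0 lower, and SLC39A11 had an adjusted p of 0.227 at 0.34. All 5 calls in the list of genes that cadmium or zinc induces (adjusted p = 0.057 to 0.178) and IDH1 (0.164) were lost with it, a check chosen, like that without a trend for these genes, after seeing the data.

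Counts over all genes, 127 higher and 34 lower, were 60 and 326 with poly-A centring, 212 and 83 at or above the median level, 18 and 3 without a trend, and 203 and 69 at an adjusted p under 0.10. With quantile normalization 68 were lower, above the 30th percentile 57, and with every probe set 9. Leaving out an array gave 28 to 40 higher and 4 to 7 lower.

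The median log2 fold change of the importers, 0.0017, was 0.016 centred on array medians, 0.027 above the 30th percentile, 0.042 as the mean of probe sets, 0.049 over every probe set, -0.14 with poly-A centring, and -0.018 to 0.013 with an array left out. Exporters moved from 0.0093 to -0.13 and metallothioneins from 0.013 to -0.13 with poly-A centring. With an array left out, the metallothionein median ran from -0.044 to 0.043 and that of the exporters from 0.0053 to 0.023.

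Of the 22 members named with values, 11 kept their direction in every fit run on genes. The others, of which 0 were past the threshold in limma, changed sign at values at most 0.135 from 0. Poly-A centring gave -0.041 for MT1F, -0.098 for MT1H, -0.11 for MT2A, -0.025 for MTF1, -0.13 for SLC30A1, -0.0033 for SLC30A7, -0.13 for SLC39A1 and -0.091 for SLC39A10. Quantile normalization gave 0.011 for MT1M, -0.0020 for SLC30A1 and -0.015 for SLC39A1, and centring on array medians 0.0068 for MT1M. The mean of probe sets gave -0.032 for MT2A, -0.012 for SLC30A1 and 0.036 for SLC39A7. With an array left out, the range was -0.17 to 0.044 for MT1B, -0.026 to 0.22 for MT1F, -0.061 to 0.046 for MT1M, -0.019 to 0.085 for MT2A, -0.013 to 0.24 for MTF1, -0.020 to 0.034 for SLC30A1, -0.011 to 0.020 for SLC39A1 and -0.011 to 0.11 for SLC39A10. Among those that kept their sign it was 0.11 to 0.24 for MT1G, -0.23 to -0.081 for MT1X, 0.14 to 0.35 for SLC30A4, -0.31 to -0.11 for SLC30A8 and -0.40 to -0.19 for SLC39A12. The cause of these moves was not tested.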

Other observations

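A probe set annotated to MT1M and the pseudogenes MT1JP and MT1P3 together, left out above because it names several genes, read 78.3 and 71.1 with exosomes and 96.0 and 105 with PBS. Its log2 difference, -0.43, is further from 0 than that of any of the 14 metallothionein probe sets annotated to 1 gene, and it was not tested. The probe sets annotated to MT1M alone lay at -0.0076 and -0.0017, and MT1JP alone at -0.057.

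The 2 exosome arrays differed from each other in the metallothioneins. Exosome replicate 1 read above exosome replicate 2 in 13 of 14 metallothionein probe sets, with a median log2 difference of 0.11, against 51.4% and 0.0038 over all probe sets annotated to 1 gene. PBS replicate 1 read above PBS replicate 2 in 10 of the 14 (71.4%), with a median difference of 0.031, against 54.7% and 0.016 over all those probe sets, and 68.9% and 0.034 over genes above an intensity of 1000. The median difference between the groups was 0.013 over genes, or -0.0011 over probe sets. It is not a like measure, since the 8 genes differed between the groups in both directions, 4 above 0 and 4 below, from -0.15 to 0.18. The metallothionein probe sets can share signal, so they are not 14 independent readings. MT1H was the exception, at 44.9 and 45.0.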
